A study of Mus musculus with 6 samples.

Results

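The HIN-200 cluster of mouse chromosome 1, also called the Ifi200 cluster, holds a row of related interferon-inducible genes. Its members were chosen by gene symbol from a list of 9 names, with the difference of Ifi208 and of several others between the groups already known from the same arrays. The levels below are therefore a description. Counts of members from the limma fits are given beside them and are not read as tests of the members. Of the 9 listed genes, 8 were measured (Aim2, Ifi208, Ifi207, Ifi204, Ifi203-ps, Mndal, Ifi203 and Ifi205), out of 24479 genes on the array. No row carried the symbol Mnda. The RefSeq gene table gives that name as a synonym of Ifi211, which is described with the other HIN-200 genes.

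Liver sinusoidal endothelial cells (LSECs), the fenestrated scavenger endothelium of the liver, were isolated from mice with a constitutive loss of the hyaluronan receptor Lyve-1 and profiled on Affymetrix MoGene-2_0-st arrays. The Lyve-1-KO mice were of the strain B6.129S1-Lyve1tm1Lhua/J on a C57BL/6 background, and the Ctrl mice were C57BL/6J. The labels name no treatment for either group. The study's methods name both littermates and purchased wild-type animals as controls. Where purchased animals were used, origin and genotype cannot be told apart. The study's methods give an age range in weeks for its routinely analysed mice, and do not say which ages were behind the arrays. Cells were obtained by collagenase perfusion, a density gradient and magnetic sorting for CD146. Each group had 3 arrays, and each array held the pooled cells of 3 mice, so the spread between arrays is a spread between pools. In bulk RNA of this kind, fewer cells of a type and less RNA per cell cannot be told apart.

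All values are log2 expression levels, and a difference is the mean of the Lyve-1-KO arrays minus the mean of the Ctrl arrays. A difference of 1 would be a doubling. The levels on every array ran between 2.92 and 13.87, with the same median of 5.04 on each, and the number of arrays limits the precision. Lyve1 itself had 12.85, 12.88 and 12.83 on the arrays labelled Lyve-1-KO, against 12.78, 12.69 and 12.84 on the Ctrl arrays. Its level was thus not lower where the labels name a knockout (difference 0.08 with a standard error of 0.06). The position of its probes relative to the deleted part of the gene was not analysed here, so directions below rest on the array labels alone. The study itself reports the knockout as verified by western blotting and immunofluorescence. Those were protein assays of liver tissue, not of the sorted cells on the arrays. The 14 LSEC markers averaged 12.81 ± 0.02 in Lyve-1-KO and 12.86 ± 0.01 in Ctrl (SD, n = 3 arrays each).

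HIN-200 proteins share a C-terminal HIN domain that binds DNA, and most also carry an N-terminal pyrin domain through which they bind other proteins. Aim2 is the best known: it senses double-stranded DNA in the cytosol and assembles an inflammasome with the adaptor Pycard and the protease caspase-1. The family is known mainly from macrophages and other myeloid cells, where type I and type II interferons induce its genes.

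The promoter stretches that several members have in common are shown as a description of the sequences. Whether they bear on the levels was not tested. RefSeq promoter windows (GRCm38.p6, 250 bases before and 50 bases after an annotated start) were found for 6 of the 8 measured genes, in 8 windows. Ifi204 and Ifi203-ps were not in that table. A pair of motifs was searched. The ISRE-type motif GAAANNGAAA is a form of the interferon-stimulated response element, and was read on both strands. The GAS-type motif TTCNNNGAA, a form of the gamma-activated sequence, reads the same on both strands. The ISRE-type motif was in 6 of the 8 windows and in 5 of the 6 genes, against 3.44% of all 32851 windows. The GAS-type motif was in none of the 8 windows, against 8.3% of all windows. Each stretch below runs 5′ to 3′ on the gene's own strand, with the ISRE-type match in capitals. The first 5 are of listed genes, and those of Ifi211 and Ifi213, 2 unlisted HIN-200 genes, are shown because they repeat the members' letters.
Ifi208, chr1:173673597-173673626, plus strand: cgtctctgagGAAATCGAAAgctatgaacc
Ifi207, chr1:173741831-173741860, minus strand: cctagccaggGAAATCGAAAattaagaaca
Mndal, chr1:173880204-173880233, minus strand: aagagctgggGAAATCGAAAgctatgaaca
Ifi203, chr1:173942508-173942537, minus strand: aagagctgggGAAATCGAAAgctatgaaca
Ifi205, chr1:174031870-174031899, minus strand: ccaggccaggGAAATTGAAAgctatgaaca
Ifi211, chr1:173913064-173913093, minus strand: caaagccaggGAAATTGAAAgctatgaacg
Ifi213, chr1:173599326-173599355, minus strand: cgtctctgagGAAATCGAAAgctatgaacc

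The exact core GAAATCGAAA was present in 16 of all 32851 windows (0.0487%), and windows of Ifi208, Ifi207, Mndal and Ifi203 were among them. Those of the unlisted HIN-200 genes Ifi213 and Ifi214 were too. The core of Ifi205, GAAATTGAAA, was in 38 windows (0.116%), which include that of Ifi211. The match began 58 bases before the annotated start in Ifi208, 41 in Ifi207, 36 in Mndal and 35 in the second window of Ifi203, but 134 in Ifi205. Ifi205 had a further ISRE-type match at base 23 after its start, and the second window of Mndal had one at base 54 before it. The first window of Ifi203 had no match. The stretches of Ifi208 and Ifi205 lie outside the annotated range of the gene and that of Ifi207 at its edge, whereas those of Mndal and Ifi203 lie inside it. The Mndal stretch is before the starts of both its windows, and the Ifi203 stretch is before the start of one window and after that of the other. Aim2 had neither motif in its window, which says only that these letters were not in those bases. That window (173420354 to 173420653, plus strand) lies inside the annotated range of Aim2, which begins at 173349547. The bases around that edge of the range were not searched. A match is a description of the sequence and does not show that a factor binds there.

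**Figure D1:**
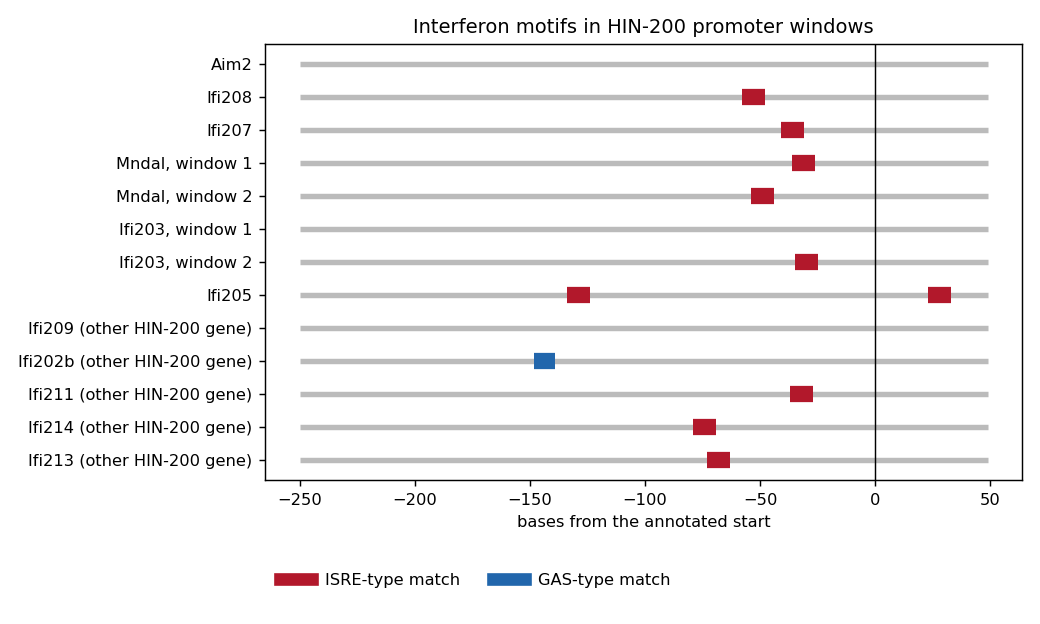
Position of each ISRE-type (red) and GAS-type (blue) match in the promoter windows of the HIN-200 genes, in bases from the annotated start (line at 0). Of the 6 listed genes with a window, 5 carry a red mark, Aim2 carries none, and the only blue mark is in Ifi202b.

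The windows also show how closely some genes resemble each other. Mndal and Ifi203 have 2 windows each, of which only the one with the printed stretch was compared. The first window of Mndal and the second of Ifi203 were identical at 282 of 300 bases (94.0%), and the printed stretches of these genes are the same. The RefSeq gene table also gives the name Mndal as a synonym of Ifi203. The window of Ifi208 matched that of the unlisted Ifi213 at 282 of 300 bases (94.0%), again with one and the same stretch around the motif. The window of Ifi207 matched that of Ifi211 at 261 bases (87.0%). Aim2 had 47.7% to 52.7% identity to the other listed genes, at which level no resemblance can be read. Ifi205 had 49.3% to 52.7%, but its window repeats long runs of letters of the Ifi207 and Ifi211 windows at a shifted place. Its low identity therefore does not show a lack of resemblance. Identity was counted over whole windows, in which the match of Ifi205 lies farther from the start than the others. Transcript sequences were not compared. The array's probes may not separate near-identical copies, so the members' values are not sure to be independent of each other.

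All 8 measured members had a higher mean on the arrays labelled Lyve-1-KO than on Ctrl arrays, where 48.9% of all genes had a difference above 0. The median difference over the members was 0.43, and over all genes it was -0.00374. In 6 of the 8 members every Lyve-1-KO array lay above every Ctrl array, as it did in 8.71% of all genes, and in none did every Lyve-1-KO array lie below, as in 8.73% of all genes. With limma, 6 of the 8 had an unadjusted p under 0.05 in the upward direction (5.87% of all genes upward, 5.33% downward), and none passed 0.05 after Benjamini-Hochberg adjustment over all genes (1 gene of 24479, 0.00409%, which was Iqcn and no member). The members were chosen with these values known, so nothing is read from the counts. Iqcn was looked up after its value was seen.

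**Figure D2:**
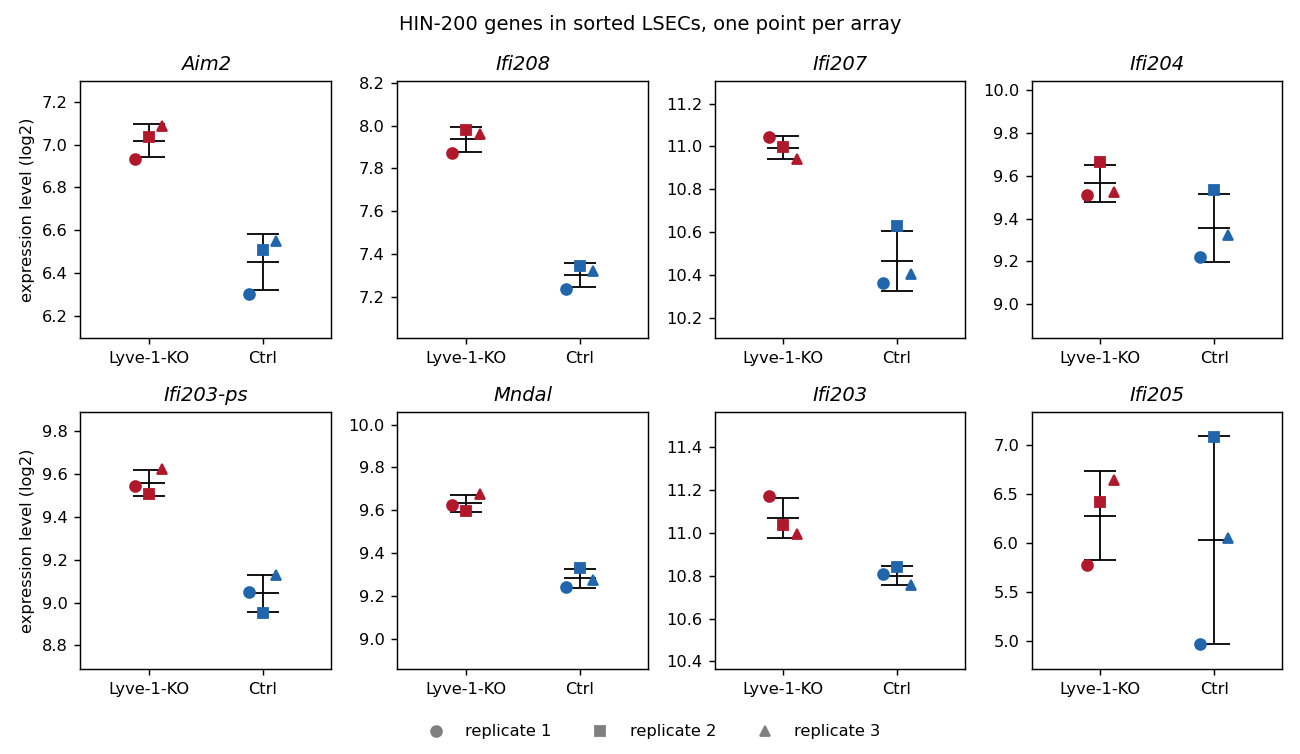
Log2 expression level of the 8 measured HIN-200 genes, one panel per gene and one point per array (circle, square and triangle for replicates 1, 2 and 3), with the mean and 1 SD of the 3 arrays as lines. Each panel has its own axis range. The groups are apart in 6 panels and overlap for Ifi204 and Ifi205.

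Aim2, the inflammasome sensor at the left end of the cluster (chromosome 1, 173349547 to 173466040 in GRCm38), had 6.93, 7.03 and 7.09 in Lyve-1-KO, against 6.30, 6.51 and 6.55 in Ctrl. The groups were apart, and the lowest Lyve-1-KO array was above the highest Ctrl array. The difference was 0.56 with a limma standard error of 0.09, a 1.48-fold higher level, between means of 7.02 ± 0.08 and 6.45 ± 0.13 (SD, n = 3 arrays each).

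Ifi208 (173673628 to 173698393), for which the RefSeq table gives the synonym Pydc3, had 7.87, 7.98 and 7.96 in Lyve-1-KO, against 7.24, 7.35 and 7.32 in Ctrl. Its arrays lay close together within each group and the groups were far apart. The means were 7.94 ± 0.06 and 7.30 ± 0.06 (SD, n = 3 arrays each), a difference of 0.63 with a standard error of 0.06. This was a 1.55-fold higher level, the largest among the members. Between arrays of the same replicate number the difference was 0.63, 0.63 and 0.64.

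Ifi207 (173723424 to 173741831) had 11.04, 11.00 and 10.94 in Lyve-1-KO, against 10.37, 10.63 and 10.40 in Ctrl. Ctrl replicate 2 was the closest to the Lyve-1-KO arrays, and it was still below all of them. The difference was 0.53 with a standard error of 0.09 (10.99 ± 0.05 and 10.47 ± 0.14, SD, n = 3 arrays each), or 1.44-fold.

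Ifi203-ps (173774452 to 173802755) is annotated as a pseudogene, and its row showed a difference of the same order. It had 9.54, 9.50 and 9.62 in Lyve-1-KO, against 9.05, 8.95 and 9.13 in Ctrl. The groups did not overlap. Its means of 9.56 ± 0.06 and 9.04 ± 0.09 (SD, n = 3 arrays each) gave a difference of 0.51 with a standard error of 0.07, or 1.43-fold. Whether its probes also take up RNA of the coding copies was not tested.

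Mndal (173857215 to 173880382), named for its likeness to the myeloid nuclear differentiation antigen, had 9.63, 9.60 and 9.68 in Lyve-1-KO, against 9.24, 9.33 and 9.28 in Ctrl. The arrays of each group agreed closely, with an SD of 0.04 in both, and the groups were apart. The difference was 0.35 with a standard error of 0.06, or 1.27-fold.

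Ifi203 (173920400 to 173942866), whose second promoter window nearly repeats the first of Mndal, had 11.17, 11.04 and 11.00 in Lyve-1-KO, against 10.81, 10.84 and 10.76 in Ctrl. All Lyve-1-KO arrays were again above all Ctrl arrays, by a smaller margin. The difference was 0.27 with a standard error of 0.07 (11.07 ± 0.09 and 10.80 ± 0.04, SD, n = 3 arrays each), or 1.20-fold.

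The groups overlapped for the other 2 members. Ifi204, the mouse relative of the human DNA sensor IFI16 (173747293 to 173767069), had 9.51, 9.66 and 9.52 in Lyve-1-KO, against 9.22, 9.53 and 9.32 in Ctrl. Ctrl replicate 2 reached the level of 2 of the Lyve-1-KO arrays. The difference was 0.21 with a standard error of 0.10. Between arrays of the same replicate number Ifi204 was higher in Lyve-1-KO each time, by 0.29, 0.13 and 0.20. Ifi205, at the right end of the cluster (174011998 to 174031755), had 5.77, 6.42 and 6.64 in Lyve-1-KO, against 4.96, 7.08 and 6.05 in Ctrl. Its highest and its lowest array were both Ctrl arrays. The difference of 0.25 was smaller than its standard error of 0.51, and it became -0.29 when Ctrl replicate 1 was left out.

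The members' differences therefore ran between 0.21 and 0.63. Aim2, Ifi208, Ifi207 and Ifi203-ps lay between 0.51 and 0.63, within reach of each other's standard errors of 0.06 to 0.09. Mndal, Ifi203, Ifi205 and Ifi204 lay between 0.21 and 0.35. With each array left out in turn, the difference of Ifi208 stayed between 0.60 and 0.67 and that of Aim2 between 0.49 and 0.61. The difference of Ifi205 ranged between -0.29 and 0.77.

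Array by array, each member was set against its own mean over the 6 arrays. On Lyve-1-KO replicates 1, 2 and 3 the median member stood 0.22, 0.23 and 0.27 above that mean, with 7, 8 and 8 of the 8 members above it. On Ctrl replicates 1, 2 and 3 the median was -0.31, -0.12 and -0.18, with 0, 2 and 0 members above. These counts restate the differences given above. They were not made over all genes, and nothing is read from them. The members on the upper side of their mean in Ctrl replicate 2 were Ifi204 and Ifi205. That array was the Ctrl array nearest to the Lyve-1-KO arrays in the median member.

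The measured HIN-200 genes that were not on the list were 5 in number, all between the outermost members. Their median difference was 0.17, with 3 of 5 above 0, and 2 of 5 higher in Lyve-1-KO at an unadjusted limma p under 0.05 (all genes: 48.9% above 0, 5.87% higher). None passed the adjustment over all genes. Ifi213, whose promoter window repeats that of Ifi208, had 6.86, 6.67 and 6.61 in Lyve-1-KO, against 5.96, 6.27 and 5.77 in Ctrl. Its groups were apart, with a difference of 0.72, a standard error of 0.14 and a Benjamini-Hochberg adjusted limma p of 0.209. Ifi211, which carries the name Mnda as a synonym, had 11.10, 10.93 and 10.96 in Lyve-1-KO, against 10.66, 10.86 and 10.81 in Ctrl, and here too the groups were apart. Its difference was 0.22 (standard error 0.08, limma adjusted p = 0.395).

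The other 3 unlisted genes had overlapping groups or lower values in Lyve-1-KO. Ifi214 had 3.80, 3.43 and 3.67 in Lyve-1-KO, against 3.44, 3.35 and 3.60 in Ctrl, with overlapping groups and a difference of 0.17. Ifi209 had 4.94, 5.07 and 4.85 in Lyve-1-KO, against 4.33, 6.04 and 5.40 in Ctrl. As for Ifi205, its lowest array was Ctrl replicate 1 and its highest Ctrl replicate 2, and its difference of -0.30 was smaller than its standard error of 0.39. Ifi202b encodes a protein with HIN domains and no pyrin domain that binds DNA and opposes Aim2. It had 3.19, 3.17 and 3.13 in Lyve-1-KO, against 3.24, 3.25 and 3.25 in Ctrl, with every Lyve-1-KO array below every Ctrl array by a small margin (difference -0.08, standard error 0.06, limma adjusted p = 0.63). The levels of Ifi202b lay near the lowest value on the arrays, 2.92, and below their median of 5.04. Little can be read from the order of its arrays.

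The genes on either side of the cluster were read too, 5 to the left and 5 to the right. On the left 3 of 5 and on the right 3 of 5 had differences above 0 (all genes: 48.9%), with medians of 0.04 and 0.09. Every Lyve-1-KO array lay above every Ctrl array in 2 of 5 on the left (Olfr418 and Ackr1) and 1 of 5 on the right (Olfr432). The share over all genes was 8.71%. In Fcer1a every Lyve-1-KO array lay below (8.73% of all genes). Olfr418, Ackr1, Olfr433 and Olfr432 were higher at an unadjusted limma p under 0.05 (5.87% of all genes). The olfactory receptor genes among them had levels below the array median of 5.04. The right flank consists of olfactory receptor genes with differences between -0.05 and 0.29. On the left, Cadm3 had a difference of -0.30, Fcer1a -0.08, Mptx2 0.04 and Olfr418 0.30. The neighbour with the highest difference was Ackr1, an atypical chemokine receptor of venular endothelium. It had 9.66, 9.72 and 9.43 in Lyve-1-KO, against 8.51, 8.82 and 8.57 in Ctrl, a difference of 0.97 (standard error 0.11, limma adjusted p = 0.0901). The annotated range of Ackr1 overlaps that of Cadm3, which in turn overlaps that of Aim2, and Cadm3 differed from both in sign. Cadm3 had 7.51, 7.68 and 7.20 in Lyve-1-KO, against 7.79, 7.94 and 7.57 in Ctrl, and its groups overlapped.

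**Figure D3:**
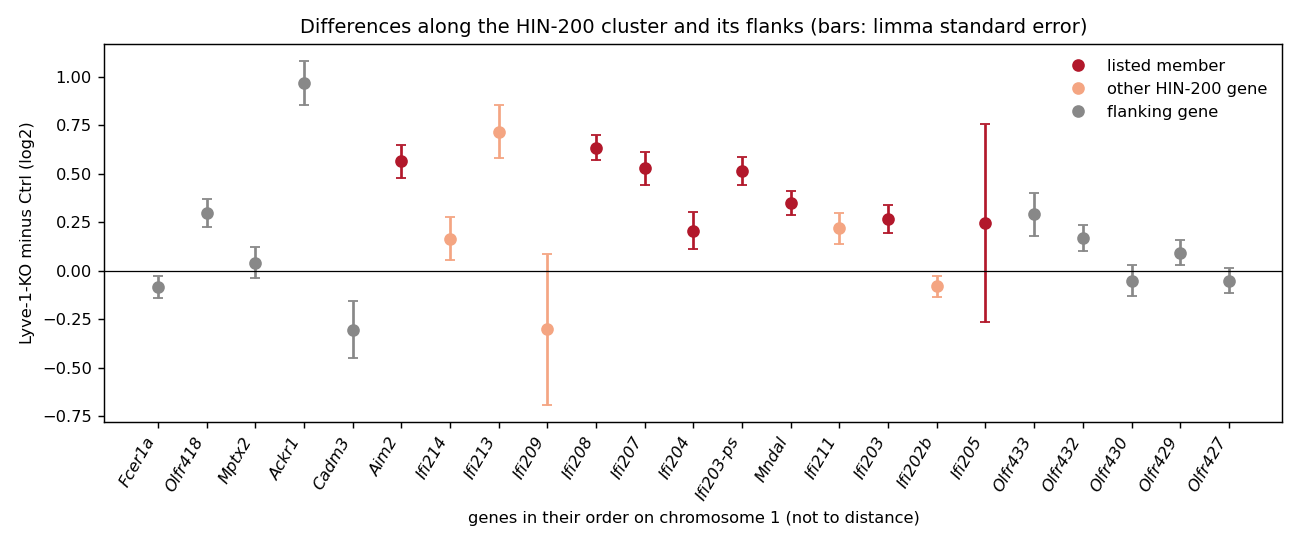
Difference between Lyve-1-KO and Ctrl (log2) of each measured gene in its order on chromosome 1, not to distance, with limma standard errors as bars: listed members in red, other HIN-200 genes in orange and the 5 genes on each side in gray. Red points all lie above 0, between 0.21 and 0.63, and Ackr1 has the highest point at 0.97.

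Genes of the inflammasome, of cytosolic DNA sensing and of interferon signalling, and other interferon-induced effector genes, were taken from 4 lists, together 85 measured genes. The lists were written from general knowledge with earlier results of these data known. The counts in them are therefore a description, and nothing is read from them. At an unadjusted limma p under 0.05, 17 of the 85 were higher in Lyve-1-KO and 0 were lower, where 5.87% of all genes were higher and 5.33% lower. With the replicate number as a block, 14 were higher. None of the 85 passed after Benjamini-Hochberg adjustment over all genes. The count of 17 depended on single arrays and was 10 once Ctrl replicate 1 was left out. Leaving out Lyve-1-KO replicate 3 gave 11, and leaving out Ctrl replicate 2 gave 28.

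In the inflammasome list, 10 of 17 genes had a difference above 0, the median was 0.03, and 2 were higher at an unadjusted p under 0.05 (all genes: 48.9% above 0, 5.87% higher). The count of 2 was 1 when Lyve-1-KO replicate 3, Ctrl replicate 1 or Ctrl replicate 3 was left out, and with the methods' test. The direct partners of Aim2 had differences close to 0. Pycard, the adaptor, had 7.35, 7.29 and 7.37 in Lyve-1-KO, against 7.34, 7.53 and 7.35 in Ctrl (difference -0.07). Casp1, the protease, had 10.19, 10.13 and 10.17 in Lyve-1-KO, against 10.21, 10.20 and 10.07 in Ctrl (difference -0.00065, standard error 0.06). In both genes the groups overlapped. The 2 genes past the unadjusted threshold were Il1a, an alarmin cytokine of the interleukin-1 family (0.35, standard error 0.07, limma adjusted p = 0.21), and Casp4, the sensor of cytosolic lipopolysaccharide (0.29, standard error 0.10, limma adjusted p = 0.371). Nlrp6 and Gsdme, the next in order of p, had differences of -0.14 and -0.16.

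Among the 14 cytosolic DNA sensing genes, 12 had a difference above 0 with a median of 0.07, and 2 were higher at an unadjusted p under 0.05 (all genes: 48.9% above 0, 5.87% higher). The count of 2 was 1 with the replicate block, with the filter on dim genes, with trended and robust variances and without any 1 Lyve-1-KO array or Ctrl replicate 1, and 4 without Ctrl replicate 2. The 2 genes were Trex1, the exonuclease that degrades DNA in the cytosol (0.41, standard error 0.10, limma adjusted p = 0.265), and Lrrfip1 (0.15). Ikbke, a kinase related to Tbk1, had a difference of 0.18, and Ddx41 had -0.16.

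The interferon signalling list had 13 of 18 genes above 0, a median of 0.14, and 4 genes higher at an unadjusted p under 0.05 (all genes: 48.9% above 0, 5.87% higher). The count of 4 was 2 when Lyve-1-KO replicate 1 or Ctrl replicate 1 was left out, and with the methods' test. Irf9 and Stat2 encode transcription factors that act downstream of the type I interferon receptor. Irf9 had a difference of 0.32 (standard error 0.06, limma adjusted p = 0.182) and Stat2 one of 0.24 (standard error 0.09, limma adjusted p = 0.394). Irf1, a transcription factor induced by interferon gamma, had 0.57 (standard error 0.15, limma adjusted p = 0.284). In these 3 genes every Lyve-1-KO array lay above every Ctrl array. Ifna4, an interferon alpha gene, had 0.33 and overlapping groups, and its many near-identical relatives make its probes uncertain. The receptor genes Ifnar1 and Ifnar2 had differences of -0.00065 and -0.01.

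Of 36 interferon effector genes 30 had a difference above 0, the median was 0.09, and 9 were higher at an unadjusted p under 0.05 (all genes: 48.9% above 0, 5.87% higher). Leaving out Ctrl replicate 2 gave 16, and leaving out Lyve-1-KO replicate 3 or Ctrl replicate 1 gave 6. The 4 with the smallest p were Irgm1 and Iigp1, immunity-related GTPases (0.41 and 0.67, limma adjusted p = 0.182 and 0.21), Mx2, a relative of the antiviral Mx GTPases that is annotated here as a transcribed pseudogene (0.90, limma adjusted p = 0.211), and Oasl2 of the oligoadenylate synthetase family (0.38, limma adjusted p = 0.25).

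**Figure D4:**
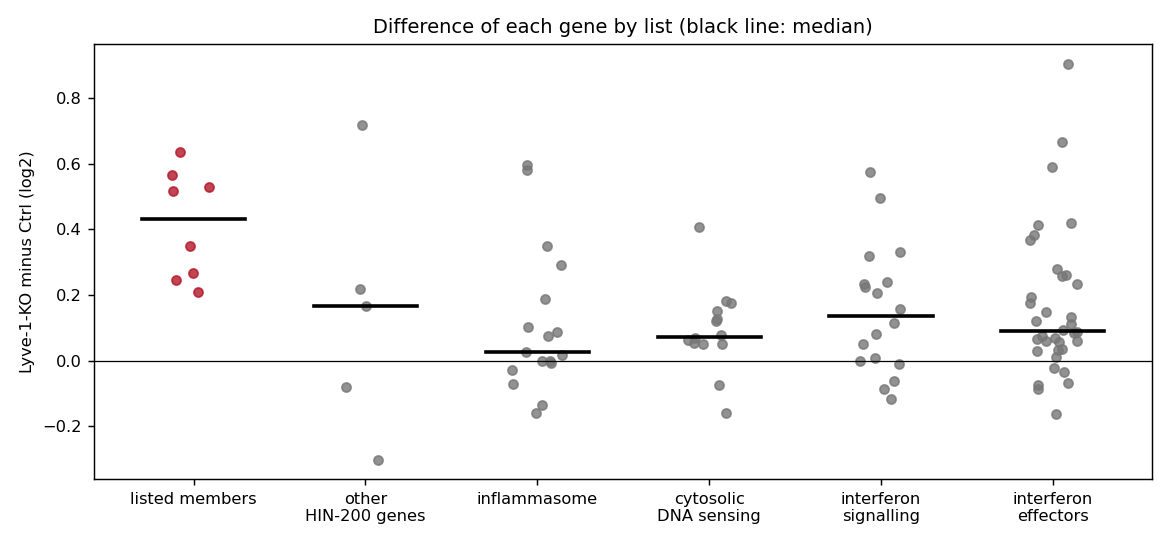
Difference between Lyve-1-KO and Ctrl (log2) of every measured gene of each list, one point per gene, with the median as a black line and random sideways spread. The median of the listed HIN-200 members is 0.43, and those of the 4 pathway lists lie between 0.03 and 0.14.

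The family is well known from macrophages, so the macrophage content of the arrays is given beside the members. The mean level of 15 macrophage markers was 8.42, 8.97 and 9.41 in Lyve-1-KO, against 7.22, 9.26 and 8.66 in Ctrl. Ctrl replicate 1 was the lowest array, and the groups overlapped. All 15 markers had a difference above 0 and 1 of them, Marco, was higher at an unadjusted limma p under 0.05 (all genes: 48.9% above 0, 5.87% higher). On each array the lowest single marker was at 5.40 to 7.34 and the highest at 9.19 to 11.14. The list includes C1qb, Cd68 and the Kupffer cell genes Clec4f and Cd5l. The difference in the mean level was 0.55 (two-sided exact permutation p = 0.6, Benjamini-Hochberg adjusted over 8 marker lists 0.96). A comparison of 3 with 3 arrays cannot give a p below 0.1. Without Ctrl replicate 1 it was -0.03.

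Ifi205 followed the macrophage level closely in its order over the arrays. Both were lowest in Ctrl replicate 1, next lowest in Lyve-1-KO replicate 1, and highest in Ctrl replicate 2 and Lyve-1-KO replicate 3. For Ifi208, Lyve-1-KO replicate 1, with a macrophage level of 8.42, had 7.87, and Ctrl replicate 2, with a macrophage level of 9.26, had 7.35. With Ctrl replicate 1 left out, where the macrophage difference was -0.03, the difference of Ifi208 was 0.60, that of Ifi203-ps 0.52, that of Aim2 0.49 and that of Ifi207 0.48. Mndal had 0.33 and Ifi203 0.27, Ifi204 came to 0.14 and Ifi205 to -0.29. These values rest on leaving out the array that sets the macrophage difference, and the part of macrophage RNA in the members' levels was not tested.

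**Figure D5:**
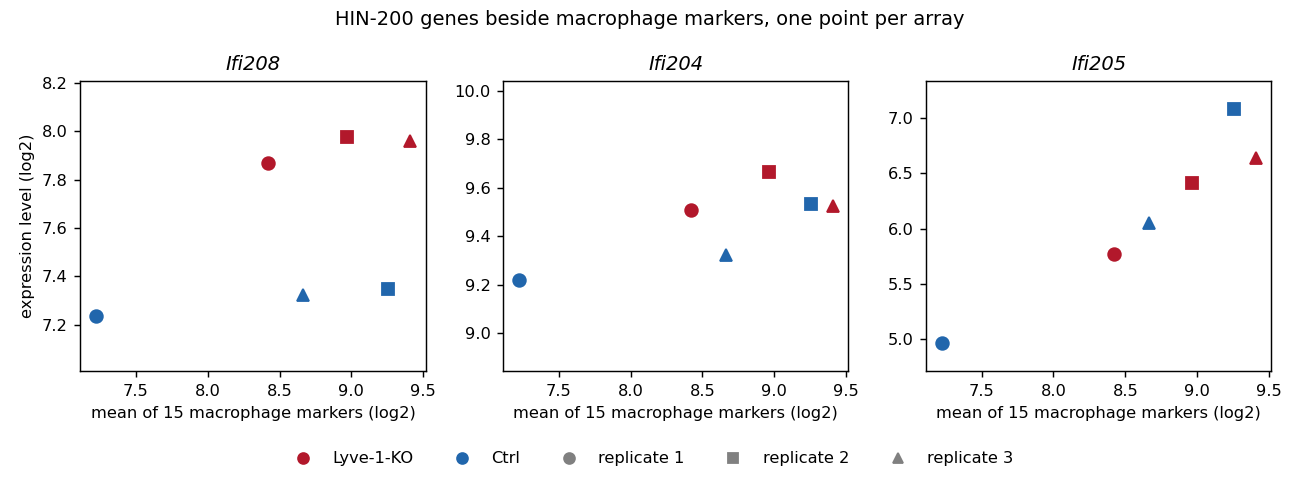
Log2 expression level of Ifi208, Ifi204 and Ifi205 on the vertical axis against the mean level of 15 macrophage markers on the horizontal axis, one point per array (Lyve-1-KO in red, Ctrl in blue, symbols for replicates). The groups are apart in height for Ifi208 at like marker levels, and for Ifi205 the arrays of both groups lie along one rising line.

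Of the other marker lists, neutrophil genes had a mean difference of 0.75, T and NK cell genes 0.19, B cell genes -0.58, and monocyte and dendritic cell genes -0.01. Leaving out Lyve-1-KO replicate 3 brought the neutrophil value to 0.27, leaving out Lyve-1-KO replicate 2 brought it to 1.15, and that of T and NK cells ran between 0.04 and 0.38 with 1 array left out. All 6 B cell markers had a difference below 0, 4 of them at an unadjusted limma p under 0.05 (all genes: 48.9% above 0, 5.33% lower). Above 0 were 8 of 9 neutrophil markers, 9 of 12 of T and NK cells and 4 of 11 of monocytes and dendritic cells. At the same threshold 1 monocyte and dendritic cell marker was higher (all genes: 5.87%) and 1 T and NK cell marker lower. The means of these lists thus cover markers of opposed sign. Hepatocyte and stellate cell genes differed by 0.06 and 0.04, and LSEC genes by -0.05. The LSEC list had the smallest exact permutation p that can be had, 0.1 (adjusted 0.533), with lower values in all 3 Lyve-1-KO arrays. The part of these cells in the members' levels was not tested.

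The genes whose pattern over the 6 arrays was most like that of Ifi208 were sought among 23280 named genes, by the root mean square distance between the values after each gene was centred on its own mean. Aim2 was second of all genes at a distance of 0.0619, Ifi207 came at place 10 (0.0997) and Ifi203-ps at place 12 (0.102). Mndal followed at place 81, Ifi203 at 477, Ifi204 at 823 and Ifi205 at 22997. Outside the cluster the nearest were Pdk4 (0.0501), Ier3 (0.0903), Perm1 (0.0908), Ephx3 (0.0913) and Ftx (0.0956). Pdk4, a kinase that inhibits the pyruvate dehydrogenase complex, had 11.38, 11.53 and 11.43 in Lyve-1-KO, against 10.79, 10.78 and 10.76 in Ctrl. The distances describe likeness over 6 arrays and carry no test.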

How the data were processed

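RNA of sorted LSECs was measured on 6 arrays, 3 of Lyve-1-KO and 3 of Ctrl, each from a pool of 3 mice. The deposited values are log2 expression levels with 1 row per Entrez-based gene, which the authors made with quantile normalization, and the submitters' processing notes name RMA. All arrays held the same set of sorted values. Of 24479 rows, 23281 carried 1 gene symbol and 1198 were unnamed here. Places and synonyms came from the RefSeq gene table (GRCm38.p6), which had 23156 of the named genes. No detection calls were used, and no depth applies to arrays.

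The values were fitted as deposited with limma 3.58.1 (lmFit and eBayes) in R 4.3.3, with group as the only term, and p-values were adjusted by the Benjamini-Hochberg method over all genes at a threshold of 0.05. The scripts were tested on simulated data. Marker lists were compared by their mean level with two-sided exact permutation tests. The members and all gene lists were chosen with earlier results of these data known. The genes named are all members, Lyve1, Pycard and Casp1, up to 4 genes per pathway list with the smallest unadjusted p, the 4 macrophage markers with the highest level, the HIN-200 genes between the members, 5 genes on each side of the cluster, and the 5 genes outside it most like Ifi208. Ifnar1, Ifnar2, Marco and Iqcn were named after their values were seen.

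Replicate numbers are shared by both groups, and the labels do not say what they mark. The deviations from the group means of arrays with the same number correlated at 0.206, 0.134 and 0.124 across genes, and those of different numbers at -0.218 to 0.0432, so a fit with the number as a block was run as an alternative. With it, 0 genes passed the adjusted threshold, against 1 without it. The other alternatives were median centring, a filter at the 40th percentile of the mean level, trended and robust variances, the methods' test (a plain analysis on group with no shared variance), and each array left out in turn. Promoter windows were matched to members by Entrez gene identifier, and their identity was counted after a global alignment.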

Additional observations from a re-analysis of the deposited data

How the results depend on the processing

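With 3 arrays per group, limma passed 1 gene at an adjusted p under 0.05 (2741 at an unadjusted p), and that count depended on the setting. It was 0 with the replicate block (lowest adjusted p 0.107, 2757 genes at an unadjusted p), 0 with the methods' test (lowest adjusted p 0.106, 2473 genes at an unadjusted p) and 49 with trended and robust variances. Leaving out 1 array at a time gave 0 to 2 genes, with 2 without Ctrl replicate 1. Of the 8 HIN-200 members 3 passed with trended and robust variances and 0 under every other setting run. The replicate block left every member's difference as it was, as it must when both groups hold the same replicate numbers. It gave 14 in place of 17 pathway genes, and 7 in place of 6 members at an unadjusted p, and 7 members were higher in every pair of one number. The shares of all genes upward with the block, or higher in every pair, were not counted. Nothing is therefore read from these counts of members. In the DNA sensing list it gave 1 gene in place of 2, in interferon signalling 3 in place of 4 and in effectors 8 in place of 9. The median difference of the members, 0.432, lay between 0.404 and 0.531 with 1 array left out, the highest without Ctrl replicate 2. The number of members with the groups apart was 6, and 6 to 7 with 1 array left out (7 without Ctrl replicate 2). Leaving out an array cannot make groups that are apart overlap, so this count could not fall. The same count over all genes with 1 array left out was not made. The difference of Ifi205 was -0.29 without Ctrl replicate 1 and 0.773 without Ctrl replicate 2. The differences of the other 7 members kept their sign under all alternatives run. No setting but a left-out array can change a difference here. For the 6 members with the groups apart, leaving out 1 array cannot change the sign. Only for Ifi204, whose groups overlap, was this open. Of 85 pathway genes 17 were higher at an unadjusted p, and 10 to 28 with 1 array left out (11 without Lyve-1-KO replicate 3, 10 without Ctrl replicate 1, 28 without Ctrl replicate 2). Median centring changed none of these values, since all arrays had one median. The cause of these shifts was not tested.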
